A study of Mus musculus with 4 samples.

Results

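The mouse counterparts of genes on human chromosome 21 were followed in sorted blasts of a mouse megakaryoblastic (M7) leukemia. The members were 43 named genes, of 18193 genes on the array that had a probe set of their own. All 43 were found through the platform annotation, with 127 probe sets between them, counting only probe sets annotated to a single gene. A gene was represented by its brightest probe set over the 4 arrays. In the RefSeq table of mouse assembly GRCm38.p6, 29 of the members lie on chromosome 16, 11 on chromosome 10 and 3 on chromosome 17, and 0 lie elsewhere, which are the mouse chromosomes known to carry the counterparts of human chromosome 21.

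People with an extra chromosome 21, as in Down syndrome, are prone to a megakaryoblastic leukemia of early childhood, in which the blasts also carry mutations that leave only a short form of the transcription factor GATA1. Which genes of the chromosome matter for that leukemia has been asked in mouse models, and the kinase DYRK1A, the nucleosome protein HMGN1 and ETS family factors are among those studied. The genes of the chromosome otherwise share a position and not a function, and they include cytokine receptors, splicing factors, enzymes and chaperones.

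The arrays held RNA of blasts from the spleen and from the peripheral blood of the same 2 mice, with 1 array per tissue and mouse. All blasts came from fetal progenitors carrying a Gata1 mutation, named Gata1s in the series title, that became leukemic through retroviral insertional mutagenesis, and all were sorted for the GFP reporter of the retrovirus. Both mice bear the same leukemia designation, T6(6), no treatment was given, and no mouse without leukemia was measured. The labels give neither the age of the mice nor an extra copy of any chromosome, so the values describe the member genes in this leukemia and do not compare gene doses.

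Median intensity per array was 108.3 and 103.7 for spleen of mice 1 and 2, against 110.6 and 108.8 for blood. Defining genes of the megakaryocyte lineage were bright, and the 7 measured markers of that list summed to 18787 and 20474 in spleen, against 16259 and 16304 in blood. Pf4, a platelet chemokine, had 8341 and 8680 in spleen, against 7507 and 7767 in blood. Granulocyte markers differed more between arrays, with sums over 8 measured genes of 3489 and 795 in spleen of mice 1 and 2, against 6062 and 15530 in blood, and 7 of the 8 had their top value in blood and their bottom value in spleen of mouse 2. Sums for 8 macrophage markers were 1648 and 812 in spleen, against 1162 and 3173 in blood. For 7 markers of T and NK cells they were 7116 and 4351 in spleen, against 5951 and 8536 in blood, with Cd3d below the brightness filter on every array. The 5 erythroid markers summed to 3467 and 3588 in spleen, against 3433 and 3846 in blood, with Hba-a1 and Alas2 below the filter. The 4 B cell markers summed to 526 and 529 in spleen, against 468 and 540 in blood, with Cd79a, Cd79b and Ms4a1 below it. Each array measured the RNA of many cells together, so fewer cells of a type and less RNA per cell cannot be told apart. There was also only 1 array per tissue of each mouse.

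Most member genes passed the brightness filter in these blasts. A gene counted as bright when its mean reached an intensity of 106, the median of all probe sets, and 41 of 43 members passed (95.3%), against 63.8% of all genes. Probes differ in how well they bind, so the place of a gene among all genes describes the brightness of its probe set and not the abundance of its transcript. On that scale the median member stood at percentile 75.2 of all genes, 36 members at or above percentile 50 and 8 at or above percentile 90. Members had 127 probe sets for 43 genes, against 34945 for all 18193 genes, and taking the brightest favours genes with more probe sets. Of 59 other measured chromosome 21 counterparts 51 passed the filter, with a median percentile of 67.0. The members were chosen with earlier results of these data known, and no test was made of these shares.

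The brightest members were Sod1, the copper and zinc superoxide dismutase, Son, a splicing cofactor of nuclear speckles, and Sumo3, which modifies proteins as a ubiquitin-like tag. Sod1 had an intensity of 4323 and 4051 in spleen of mice 1 and 2, against 4028 and 4315 in blood. Son had 3633 and 3276 in spleen, against 3604 and 3633 in blood. The arrays of both genes overlapped between the tissues. Sumo3 had 3398 and 3694 in spleen, against 2917 and 3025 in blood, so that both spleen arrays lay above both blood arrays. Others at or above percentile 90 were Cct8, a subunit of the chaperonin that folds actin and tubulin, at 2905 ± 297 (SD, n = 4 arrays), Gart, a trifunctional enzyme of purine synthesis, at 2129 ± 93.1, Hmgn1 at 2111 ± 340, Pttg1ip at 1896 ± 342 and Rrp1, a factor of ribosomal RNA processing, at 1815 ± 246.

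Both members under the filter were App, the amyloid precursor protein, and Setd4, a SET domain methyltransferase. App, with the lowest percentile of all members at 13.1, had 37.7 and -26.1 in spleen of mice 1 and 2, against 25.9 and 149 in blood. Its signal exceeded 106 on the array of blood of mouse 2 alone, which is also the array with the highest sum of granulocyte markers, and the part of other blood cells in this value was not tested. Setd4 had 94.9 and 89.6 in spleen, against 54.5 and 41.3 in blood, without overlap between the tissues but dim on all 4 arrays. Neither gene was tested.

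**Figure D1:**
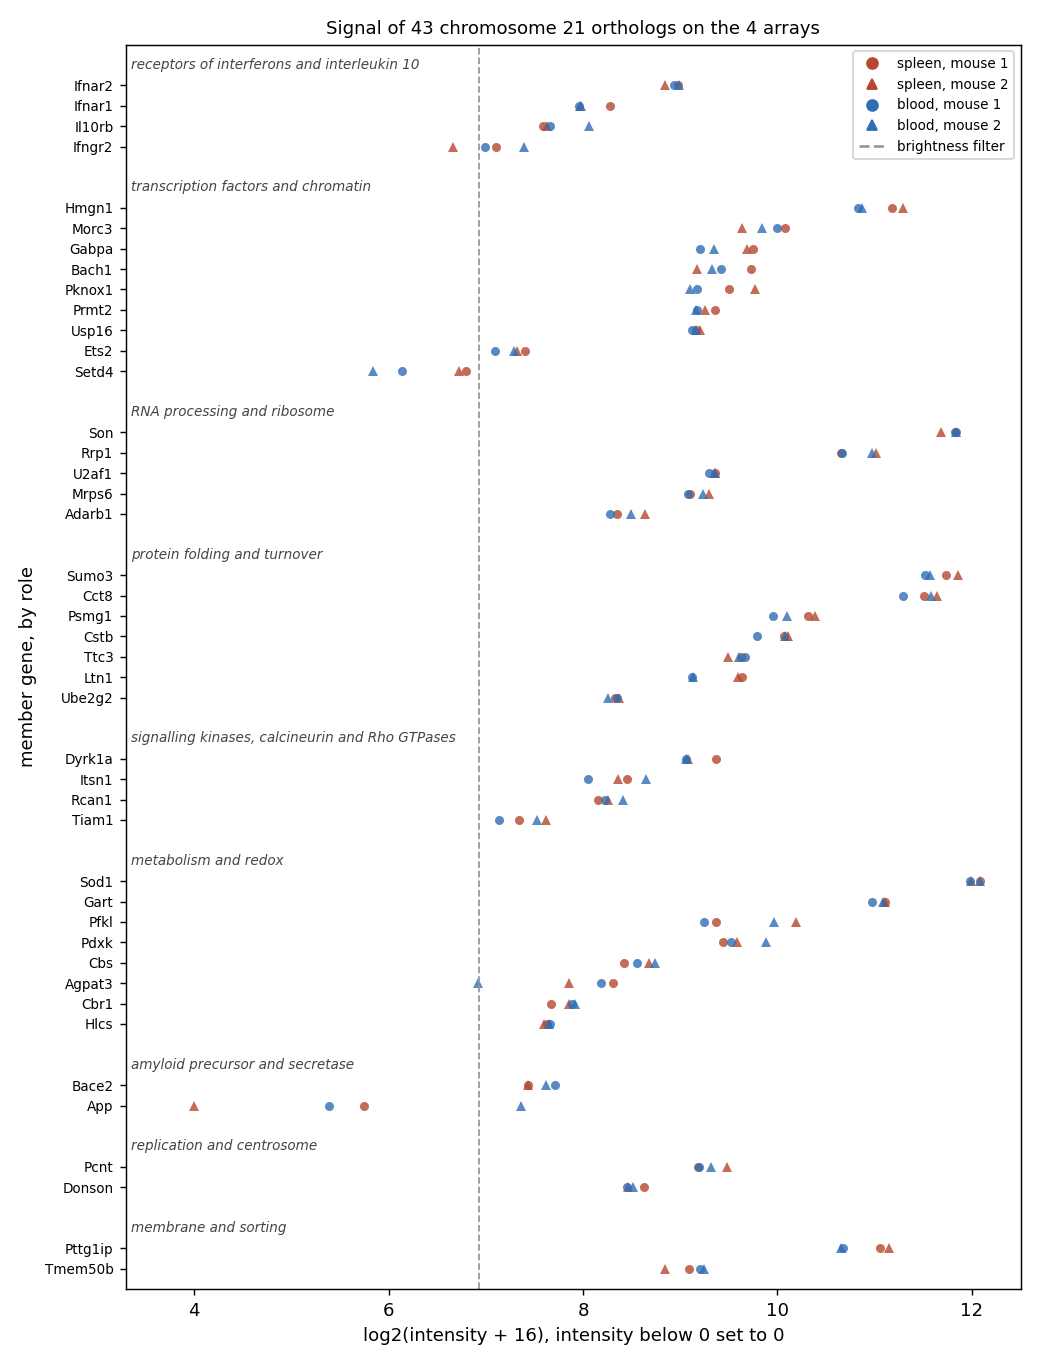
Signal of the 43 members by role, as log2(intensity + 16) with intensities below 0 set to 0. Each point is 1 array, circles are mouse 1 and triangles mouse 2, red is spleen and blue is blood, and the dashed line is the brightness filter at an intensity of 106. Sod1, Son and Sumo3 stand farthest right, App and Setd4 have mean values left of the line, and most members have their 4 arrays close together.

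The spread of the members over the 4 arrays was near that of all tested genes. The median SD of a member was 0.15 on the log2(intensity + 16) scale, and that of all tested genes was also 0.15. For 13 of 41 tested members (31.7%) the 4 arrays lay within 0.25 log2 units of each other, against 32.1% of all tested genes. The narrowest range, 0.06, was that of Hlcs, the ligase that attaches biotin to carboxylases. U2af1, the splicing factor subunit that reads the end of introns and is mutated in human myeloid neoplasms, came next with 0.07, at an intensity of 642 and 641 in spleen, against 611 and 639 in blood. Usp16, which removes ubiquitin from a core histone, had a range of 0.08.

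The comparison of spleen with blood asked how the members differed between the sites of the leukemia. Spleen exceeded blood in each mouse for Ltn1, Pttg1ip, Hmgn1, Gabpa, Pknox1 and Psmg1, the 6 leading members, with a mean over both mice of 0.32 to 0.50 on the log2 scale and single-mouse values of 0.29 to 0.67. All other tested members lay nearer to 0 or, like Agpat3, differed unevenly between the mice. No member passed the test. With limma, 0 of 41 tested members had an adjusted p under 0.05, the smallest being 0.218, and 0 of 11614 genes did (0.0%). Over all genes 20 passed without the spleen array of mouse 1 and 45 with a prior that follows intensity, with 0 members among them. At an unadjusted p under 0.05 there were 6 members higher in spleen (14.6%), against 8.12% of all tested genes, and 0 members lower, against 4.31%. Over all tested genes this made 943 higher and 500 lower, while arrays centred on their medians gave 718 and 686. Without the blood array of mouse 2 the counts over all genes were 428 and 239, and without the spleen array of mouse 1 they were 768 and 772. Members lower at this threshold numbered 2 without the spleen array of mouse 1 and 1 without the blood array of mouse 1 or with quantile normalization. Higher in both mice were 21 of 41 members (51.2%), against 38.5% of all tested genes, and lower in both were 9 (22.0%), against 25.1%. The other 11 members went in opposite directions in the mice (26.8%), against 36.4%. With every probe set of a gene averaged, these counts were 13 higher and 5 lower of 33 tested members, and quantile normalization gave 16 higher and 14 lower of the 41. The median difference of the tested members was 0.12 in mouse 1 and 0.02 in mouse 2, against 0.07 and 0.01 for all tested genes. No test was made over the list, because the members share their arrays.

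The smallest adjusted p of the members was that of Ltn1, which encodes listerin, the ubiquitin ligase that marks unfinished chains on stalled ribosomes. Ltn1 had an intensity of 777 and 755 in spleen of mice 1 and 2, against 539 and 545 in blood, a difference of 0.49 ± 0.11 (SE, 2 arrays per tissue) with an adjusted p of 0.218 in limma. Both spleen arrays were high and the tissues did not overlap. All 4 bright probe sets of the gene were higher in spleen on average, and their differences ran from 0.12 to 0.49.

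Pknox1, a homeodomain transcription factor that pairs with PBX proteins, had 708 and 857 in spleen, against 561 and 533 in blood, a difference of 0.50 ± 0.14. Of its 3 bright probe sets 2 were higher in spleen and the third gave -0.03. Pttg1ip, a membrane protein that binds securin, had 2115 and 2260 in spleen, against 1620 and 1590 in blood, a difference of 0.44 ± 0.11. The other bright probe set of Pttg1ip gave 0.51, and on the probe sets used the tissues did not overlap in either gene. Both bright probe sets of Pttg1ip are of types that may also bind related sequences.

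Gabpa encodes the DNA-binding subunit of GABP, an ETS family factor that acts on genes of mitochondria and ribosomes. Its signal was 843 and 806 in spleen, against 574 and 637 in blood, a difference of 0.44 ± 0.12, while its other bright probe set gave 0.09. Hmgn1, which binds nucleosomes and loosens chromatin, had 2294 and 2499 in spleen, against 1801 and 1852 in blood, a difference of 0.39 ± 0.11. The Hmgn1 probe set used, like another of its 3 bright ones, is of a type that may also bind related sequences. The 3 bright probe sets gave differences between 0.39 and 0.48, and a dim one gave -0.03. Psmg1, a chaperone of proteasome assembly with a single probe set, had 1256 and 1322 in spleen, against 975 and 1080 in blood, a difference of 0.32 ± 0.12. In all 6 genes the tissues did not overlap, and adjusted p-values in limma lay between 0.218 and 0.366. Both spleen arrays stood above both blood arrays for 14 of 41 members (34.1%), against 27.5% of all tested genes. Without the blood array of mouse 2 the 6 genes differed by 0.40 to 0.51. Their direction could not turn with an array left out, because their tissues did not overlap.

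**Figure D2:**
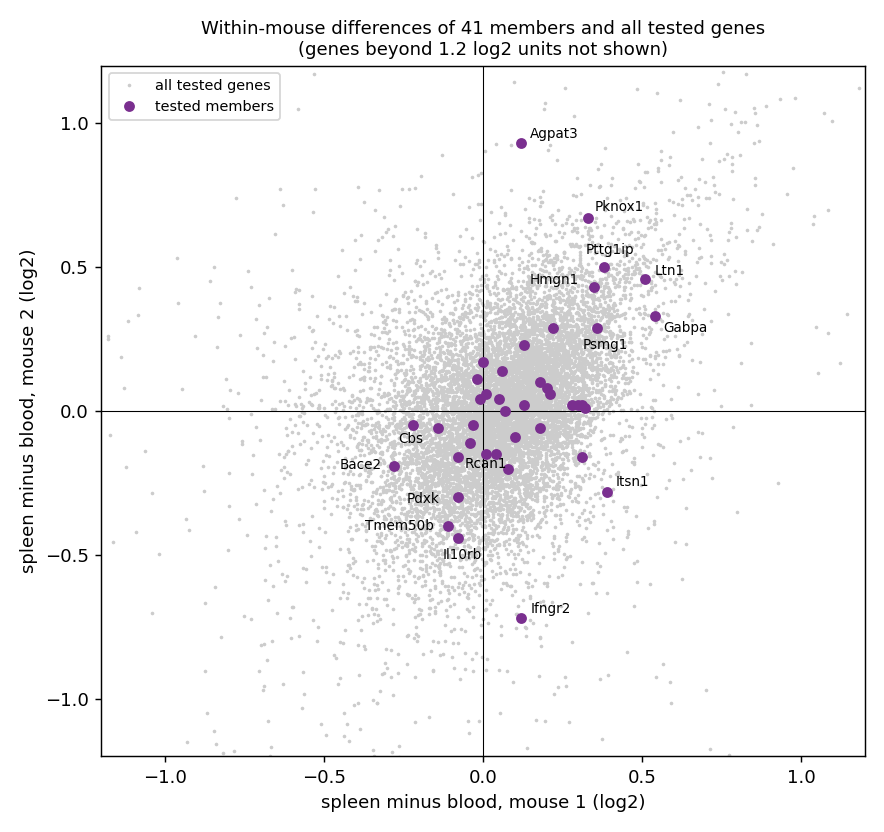
Spleen minus blood on the log2(intensity + 16) scale in mouse 1 (horizontal) and mouse 2 (vertical), with 41 tested members in purple over all 11614 tested genes in grey. Ltn1, Pttg1ip, Hmgn1, Gabpa, Pknox1 and Psmg1 lie in the upper right, higher in spleen in both mice, while Agpat3, Ifngr2 and Itsn1 stand apart because their differences were unequal in the mice.

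**Figure D3:**
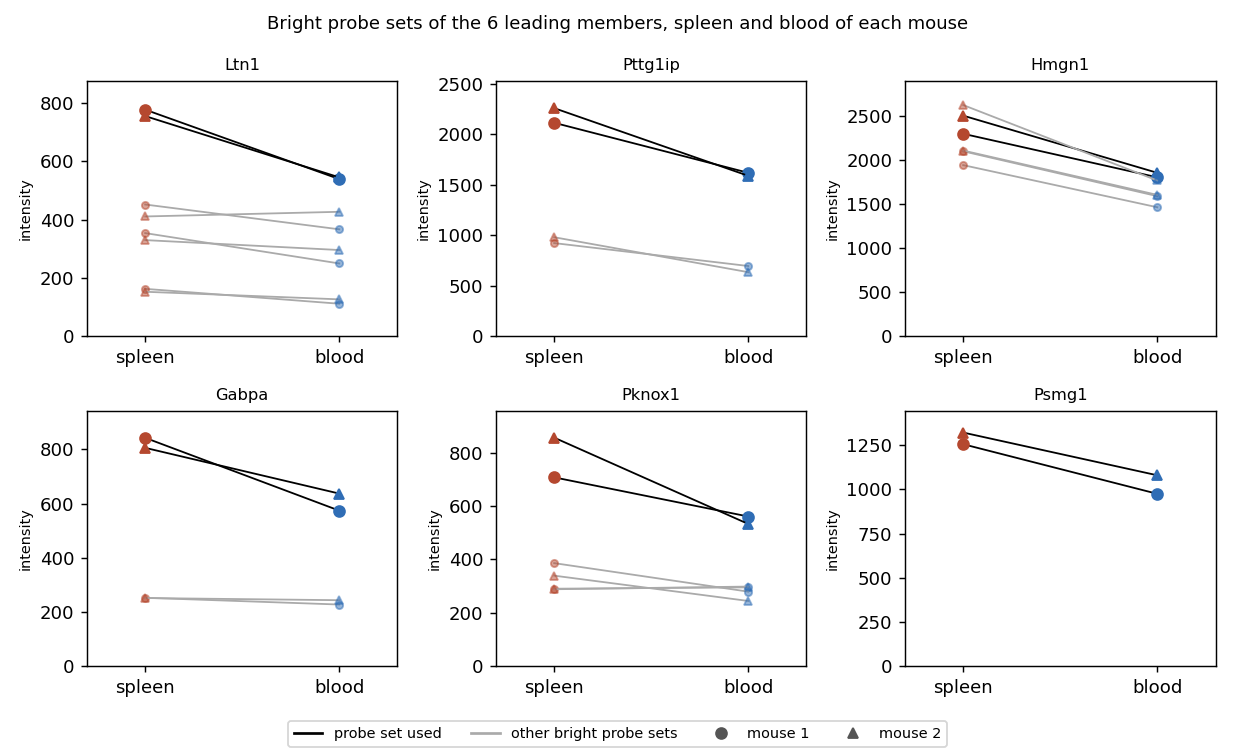
Intensity of each bright probe set of the 6 leading members, with spleen left of blood and a line joining the tissues of 1 mouse (circles mouse 1, triangles mouse 2; black the probe set used, grey the others). Lines of Hmgn1, Pttg1ip and Psmg1 all slope down towards blood, while 1 probe set of Gabpa and 1 of Pknox1, both above the filter, are nearly flat.

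Upstream sequence is shown for 5 of these 6 genes, because they were the members that were higher together and one of them encodes an ETS factor. The 250 bases before each gene's start are given from RefSeq, build GRCm38.p6, 5′ to 3′ on the strand of the gene. They lie at chr16:87432607-87432856 (minus strand) for Ltn1, chr10:77581405-77581654 (plus) for Pttg1ip, chr16:96127726-96127975 (minus) for Hmgn1, chr16:84834874-84835123 (plus) for Gabpa and chr16:95990961-95991210 (minus) for Psmg1. Capitals mark CCGGAAG, a motif of ETS factors, searched on both strands (CTTCCGG on the other). It is a longer form around their GGAA core, and GGAA without these flanks was not searched and stands unmarked.
Ltn1: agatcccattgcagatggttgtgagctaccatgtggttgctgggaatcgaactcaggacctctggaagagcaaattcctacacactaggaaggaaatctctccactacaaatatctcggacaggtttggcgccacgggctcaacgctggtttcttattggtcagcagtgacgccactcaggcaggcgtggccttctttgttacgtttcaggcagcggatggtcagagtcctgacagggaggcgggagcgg
Pttg1ip: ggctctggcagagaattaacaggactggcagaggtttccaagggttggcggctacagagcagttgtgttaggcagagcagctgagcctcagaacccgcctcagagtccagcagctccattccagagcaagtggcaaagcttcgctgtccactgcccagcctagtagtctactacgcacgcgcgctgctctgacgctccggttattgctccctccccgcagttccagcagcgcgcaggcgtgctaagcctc
Hmgn1: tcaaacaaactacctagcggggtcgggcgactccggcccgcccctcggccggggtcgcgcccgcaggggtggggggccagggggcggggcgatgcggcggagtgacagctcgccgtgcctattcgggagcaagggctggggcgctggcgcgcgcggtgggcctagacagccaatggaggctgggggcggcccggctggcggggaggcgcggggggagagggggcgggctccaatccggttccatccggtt
Gabpa: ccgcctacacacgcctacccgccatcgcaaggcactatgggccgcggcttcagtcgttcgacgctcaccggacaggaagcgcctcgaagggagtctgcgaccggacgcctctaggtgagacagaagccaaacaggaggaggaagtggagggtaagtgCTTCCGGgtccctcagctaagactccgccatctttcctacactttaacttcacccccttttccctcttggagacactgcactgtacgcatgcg
Psmg1: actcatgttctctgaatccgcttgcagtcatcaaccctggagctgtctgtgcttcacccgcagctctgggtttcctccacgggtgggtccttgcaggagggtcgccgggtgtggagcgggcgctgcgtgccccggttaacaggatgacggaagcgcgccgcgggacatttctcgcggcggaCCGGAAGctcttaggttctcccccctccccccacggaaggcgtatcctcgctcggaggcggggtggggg
The letters occur once in the Gabpa window, beginning 93 bases before the start, and once in that of Psmg1, beginning 69 bases before it. The windows of Ltn1, Pttg1ip and Hmgn1 do not hold them. The sequence table had an entry for 38 members, the untested App and Setd4 among them. Of these 38 members 9 held the motif (23.7%), against 15.2% of 9406 genes with an entry, a set of tested genes only. Besides Gabpa and Psmg1 these were Usp16, Cct8, Donson, Ifnar1, Setd4, Hlcs and Prmt2, and the tested ones among these 7 differed by -0.04 to 0.16 between the tissues. A match describes the letters of the window and is no evidence of binding.

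The 4 receptor chains shared no direction between the tissues, with 1 higher in spleen in both mice, 1 lower and 2 uneven. Their differences ran from 0.16 down to -0.30 for Ifngr2, the lowest of any tested member. The median of the 4 was -0.15, against 0.06 for all tested members. Over all tested genes 38.5% were higher in both mice and 25.1% lower. Ifnar1 and Ifnar2 are both chains of the receptor for type I interferons, Ifngr2 is the second chain of the receptor for interferon gamma, and Il10rb is a shared chain of the receptors for interleukin 10 and interferon lambda. Ifnar1 had 295 and 236 in spleen of mice 1 and 2, against 233 and 234 in blood, a difference of 0.16 ± 0.14, and its other bright probe set gave -0.36. Ifnar2 had 488 and 443 in spleen, against 472 and 492 in blood, a difference of -0.05 ± 0.12. With all probe sets of a gene averaged, Ifnar1 differed by -0.10 and Ifnar2 by 0.08, so that the direction of both turned with the probe sets used.

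Ifngr2 had 122 and 85.5 in spleen, against 111 and 152 in blood, with a difference of 0.12 in mouse 1 and of -0.72 in mouse 2. Il10rb had 176 and 182 in spleen, against 186 and 252 in blood, with a difference of -0.08 in mouse 1 and of -0.44 in mouse 2. Both genes were highest in blood of mouse 2, the array with the highest sums of granulocyte, macrophage and T and NK cell markers, and the part of those cells was not tested. For Ifngr2 the difference over both mice was -0.30, and it was -0.08 without the spleen array and -0.10 without the blood array of mouse 2, but -0.52 without the spleen array and -0.50 without the blood array of mouse 1. For Il10rb it was -0.26, with -0.05 and -0.46 without the blood arrays of mice 2 and 1. Highest in blood and lowest in spleen of mouse 2 were 3 of 41 members (7.32%), Ifnar2, Ifngr2 and Tmem50b, against 11.9% of all tested genes.

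Downstream and partner genes of these receptors were also read. Of 10 tested genes for kinases, STAT factors, interferon regulatory factors and other partners, 6 were lower in spleen in both mice (25.1% of all tested genes were) and 0 were higher, with a median difference of -0.31, against 0.03 for all tested genes. At an unadjusted p under 0.05 there were 3, all lower, and 0 had an adjusted p under 0.05. Like most granulocyte markers, 6 of the 10 had their top value in blood and their bottom value in spleen of mouse 2 (11.9% of all tested genes did), and the part of other blood cells was not tested. Tyk2, a kinase bound to the type I receptor, had 313 and 393 in spleen, against 412 and 497 in blood. Stat3, which answers interleukin 10, had 1551 and 1590 in spleen, against 1880 and 1983 in blood, a difference of -0.30 ± 0.11.

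Of 8 tested transcription and chromatin genes, 6 had higher spleen values in each mouse and 0 had lower ones, where 38.5% and 25.1% of all tested genes did. Apart from Gabpa, Hmgn1 and Pknox1, their differences were small. Ets2, an ETS factor studied in megakaryocyte development, was at 140 ± 13.4 (SD, n = 4 arrays), the dimmest of the 8, and differed by 0.16 ± 0.13 between the tissues. Bach1, a repressor released by heme, was at 672 ± 116. It had 832 and 559 in spleen, against 670 and 625 in blood, so that the spread between the spleen arrays exceeded any difference between tissues. Morc3, an ATPase of nuclear bodies, was at 937 ± 125 and Prmt2, an arginine methyltransferase, at 588 ± 37.8. Among 9 tested partners and redox or heme genes around Bach1, 4 were higher in both mice and 1 lower, with 1 at an unadjusted p under 0.05. This was Nfe2l2, the factor that competes with Bach1 for shared sites, at 1652 and 1483 in spleen, against 1251 and 1191 in blood. Mafg, a small MAF protein that pairs with Bach1, was lower, with 569 and 651 in spleen, against 621 and 855 in blood, and the tissues overlapped.

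The RNA processing members stayed close to 0, with differences between -0.07 for Son and 0.10 for Adarb1, an editing enzyme that turns adenosine into inosine. Mrps6, of the mitochondrial ribosome, was at 565 ± 43.4. Of 8 other tested splicing factors 5 were higher in spleen in both mice and 0 lower (38.5% and 25.1% of all tested genes were). Of them, 1 had an unadjusted p under 0.05 in limma. Srsf3 had 3146 and 3023 in spleen, against 2618 and 2191 in blood, and Srsf2 had 4764 and 4799, against 4133 and 4090. The spleen arrays of these SR proteins lay above the blood arrays, while those of U2af1 and Son lay within 0.15 log2 units or less of blood.

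Of the 7 members in protein folding and turnover, 5 were higher in spleen in each mouse (38.5% of all tested genes were), led by Ltn1 and Psmg1. Sumo3 differed by 0.25 ± 0.12 with an adjusted p of 0.437 in limma, while its other, dim probe set gave -0.25. Cstb, an inhibitor of cathepsins, was at 1021 ± 99.8, Ttc3, a ubiquitin ligase that acts on AKT, at 758 ± 40.4, and Ube2g2, a conjugating enzyme for proteins leaving the endoplasmic reticulum, at 305 ± 10.8. Cct8 differed by 0.14 ± 0.14. The other 7 subunits of its chaperonin had a median of 0.11, with 5 higher in both mice and 1, Cct5, at an unadjusted p under 0.05, at 5096 and 5483 in spleen, against 4276 and 4372 in blood. Cct4 had 5281 and 5123 in spleen, against 4475 and 4576 in blood.

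The signalling members include a kinase and an inhibitor that both restrain NFAT. Dyrk1a, which phosphorylates NFAT, had 645 and 524 in spleen of mice 1 and 2, against 519 and 517 in blood, a difference of 0.16 ± 0.14. The spleen array of mouse 1 alone stood apart, and all 3 bright probe sets of the gene had differences above 0, with the lowest at 0.06. Rcan1, the inhibitor of calcineurin, had 268 and 289 in spleen, against 284 and 325 in blood, a difference of -0.12 ± 0.12 with overlap between the tissues. The value was -0.03 without the blood array of mouse 2, -0.07 without the spleen array of mouse 1 and -0.21 without the blood array of mouse 1. Calcineurin and NFAT genes split evenly, with 4 of 10 tested higher in both mice and 4 lower (38.5% and 25.1% of all tested genes were). Ppp3cb, a catalytic subunit, had 1448 and 1260 in spleen, against 1111 and 979 in blood, and Nfatc2 had 219 and 198 in spleen, against 292 and 259 in blood. These 2 genes, in opposite directions, were those of the list at an unadjusted p under 0.05, and no gene of it passed the adjusted threshold.

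Itsn1, a scaffold of endocytosis, had 9 probe sets, the most of any member. The one used had 333 and 313 in spleen, against 250 and 385 in blood, a difference of 0.39 in mouse 1 and of -0.28 in mouse 2. The other 4 bright probe sets were lower in spleen on average, and over the 5 the differences ran from -0.48 to 0.05. Tiam1, an exchange factor for the GTPase RAC, passed the filter at 155 ± 24.1.

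Metabolic members went both ways, with 3 of 8 higher in both mice and 4 lower, where 38.5% and 25.1% of all tested genes were. Gart differed by 0.08 ± 0.11. Of the other purine genes, all 10 tested were higher in spleen in both mice, where 38.5% of all tested genes were, with a median difference of 0.26, 4 at an unadjusted p under 0.05 and 0 past the adjusted threshold. Prps2, which makes the activated ribose phosphate, had 1668 and 1555 in spleen, against 1266 and 1227 in blood, a difference of 0.37 ± 0.11. Gmps, the synthetase of guanosine monophosphate, had 1858 and 1883 in spleen, against 1487 and 1503 in blood. Whether Gart differed from these genes was not tested.

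Pdxk, the kinase of vitamin B6, had 680 and 754 in spleen, against 718 and 930 in blood, a difference of -0.19 ± 0.16. It was -0.00 without the blood array of mouse 2, -0.11 without the spleen array of mouse 1 and -0.37 without the blood array of mouse 1. Cbs, the first enzyme of transsulfuration, had 326 and 394 in spleen, against 360 and 411 in blood, a difference of -0.10 ± 0.14. For both genes the tissues overlapped. Cbr1, a carbonyl reductase that acts on anthracyclines, was at 212 ± 17.3.

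Bace2, a secretase that cuts the amyloid precursor, was lower in spleen in both mice. It had 157 and 157 in spleen, against 193 and 181 in blood, a difference of -0.23 ± 0.11 with an adjusted p of 0.457 in limma, and its other bright probe set gave 0.09. Tmem50b, a membrane protein of the secretory pathway, had 529 and 443 in spleen, against 573 and 591 in blood, a difference of -0.26 ± 0.13, which was -0.13 without the spleen array of mouse 2. Its tissues did not overlap, which held in the lower direction for 5 of 41 members (12.2%), against 17.6% of all tested genes. Other amyloid processing genes had a median of -0.02, with 2 of 7 higher in both mice and 1 lower (38.5% and 25.1% of all tested genes were). Adam10, the alpha secretase, had 4261 and 3924 in spleen, against 3762 and 3322 in blood, and Aph1a, of the gamma secretase, had 653 and 586 in spleen, against 626 and 504 in blood.

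Pcnt, the scaffold of the centrosome, and Donson, a replication fork protein, were read beside the cell cycle. Pcnt had 567 and 699 in spleen, against 568 and 622 in blood, and differed by 0.08 ± 0.14. Donson had 379 and 336 in spleen, against 333 and 350 in blood, and differed by 0.06 ± 0.12. Of 14 tested genes of mitosis all were higher in spleen in each mouse (38.5% of all tested genes were), with a median of 0.83. Immediate early genes were lower for all 10 tested (25.1% of all tested genes were), with a median of -1.73. Bub1, a spindle checkpoint kinase, had 546 and 633 in spleen, against 251 and 301 in blood, and Nusap1, a spindle protein, had 1144 and 1183 in spleen, against 554 and 469 in blood. Fos, a subunit of AP-1, had 67.7 and 3.26 in spleen, against 299 and 855 in blood, and Dusp1, a MAP kinase phosphatase, had 621 and 164 in spleen, against 2334 and 2793 in blood. Of the 10 immediate early genes 8 had their top value in blood and their bottom value in spleen of mouse 2, as had 7 of 8 granulocyte markers and 0 of the mitosis genes. These lists moved with the tissues on the same arrays as the 6 leading members, and their part in the members' differences was not tested.

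**Figure D4:**
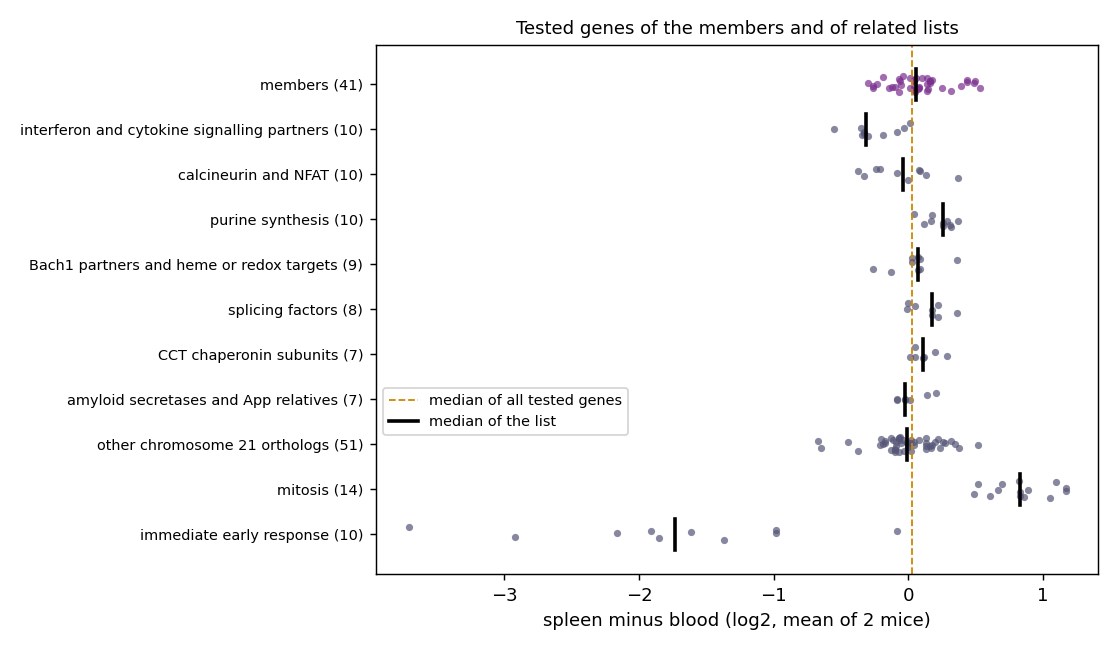
Spleen minus blood (log2, mean of both mice) for tested genes of the members and of related lists, each point 1 gene, with the number tested in brackets, the black bar the median of the list and the dashed line the median of all tested genes at 0.03. Members span -0.30 to 0.53, purine genes all lie right of 0, and the mitosis and immediate early lists lie far from the members on either side.

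The median difference was 0.04 for the 27 tested genes of chromosome 16, 0.14 for the 11 of chromosome 10 and 0.04 for the 3 of chromosome 17. Higher in both mice were 12 of 27, 7 of 11 and 2 of 3, against 38.5% of all tested genes. Whether the chromosomes differed was not tested.

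Probe sets of a member did not always agree. Of 23 members with at least 2 bright probe sets, 10 had all of them in one direction between the tissues and 13 had both directions. The share over all genes was not computed. A mixed direction can be small, as with 0.08 and -0.01 for Pcnt, or larger, as with 0.16 and -0.36 for Ifnar1. Directions were mixed for Sod1, Son, Gart, Bach1, Ifnar1, Ifnar2, Itsn1, Ttc3, Bace2, Pdxk, Pcnt, Prmt2 and Pknox1, and they agreed for Ltn1, Gabpa, Hmgn1, Pttg1ip, Dyrk1a, Morc3, Cstb, Mrps6, Rrp1 and Pfkl. The remaining bright members rested on a single bright probe set. For Hmgn1, Ttc3, Sod1, Mrps6, Morc3, Sumo3, Pttg1ip and Pcnt the probe set used was of a type that may also bind related sequences.

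Between the mice, with 1 animal a side and no test, a single member stood out in both tissues. Pfkl, the liver form of phosphofructokinase, had 1155 in spleen and 985 in blood of mouse 2, against 645 and 590 in mouse 1. Mouse 2 was higher by 0.83 in spleen and by 0.72 in blood. All 3 bright probe sets of Pfkl agreed between the tissues, but the dimmest of them had 217 and 197 in spleen and blood of mouse 2, against 252 and 220 in mouse 1, the opposite direction. At least 1.5-fold between the mice in the same direction in both tissues was reached by 1 of 41 members (2.44%), against 0.594% of all tested genes.

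Agpat3, an acyltransferase of phospholipid synthesis, had 215 in spleen and 105 in blood of mouse 2, against 300 and 275 in mouse 1. Its low array, blood of mouse 2, also set its difference between the tissues, at 0.93 in mouse 2 and 0.12 in mouse 1. Without that array the difference over both mice was -0.11, against 0.53 with all arrays. Rrp1 had 2054 in spleen and 2000 in blood of mouse 2, against 1595 and 1610 in mouse 1. Mouse 2 was higher in both tissues for 17 of 41 members (41.5%), against 27.4% of all tested genes, and lower for 8 (19.5%), against 30.7%.

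**Figure D5:**
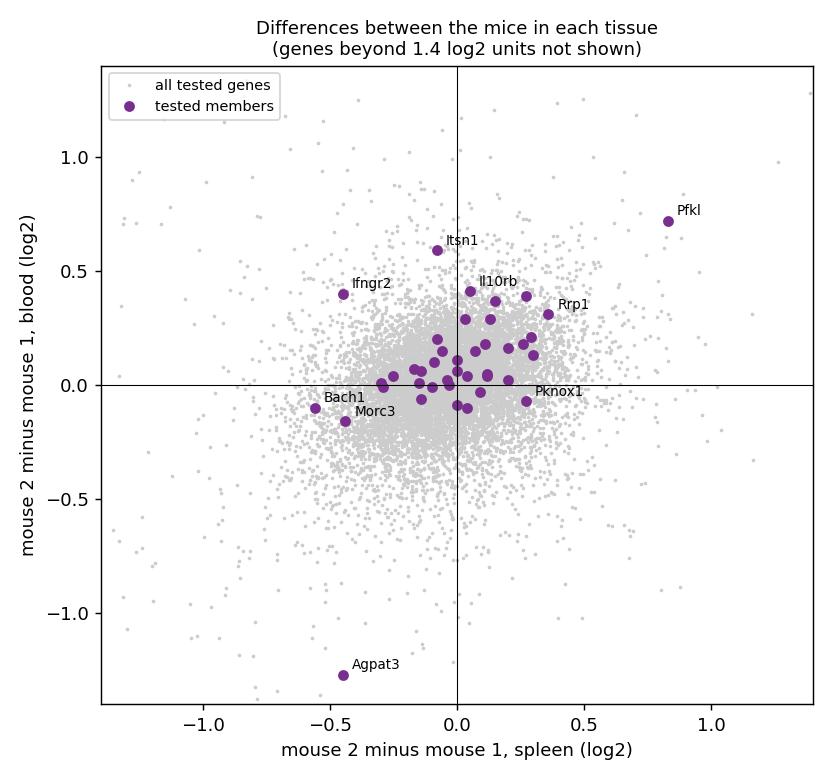
Mouse 2 minus mouse 1 on the log2(intensity + 16) scale in spleen (horizontal) and blood (vertical), with tested members in purple over all tested genes in grey. Pfkl lies in the upper right at 0.83 and 0.72, Agpat3 at the bottom at -0.45 and -1.27, and most members lie near the centre.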

How the data were processed

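Blasts of spleen and blood from 2 mice gave 4 Affymetrix arrays. The authors deposited linear intensity per probe set, judged so from the values. Their summary, background correction and scaling were not given in the sources used here. Differences are on the log2(intensity + 16) scale, with negative intensities at 0, which understates those of dim genes. Of 45101 probe sets, 34945 had 1 gene symbol and 932 several; 64 control probe sets were left out. Current symbols came from RefSeq GRCm38.p6 by Entrez identifier, found for 34741. Each gene took its brightest probe set, and 11614 genes passed a brightness filter (mean at or above the overall probe set median) and were tested with limma 3.58.1 in R 4.3.3 (lmFit, eBayes, two-sided, tissue as the sole term, Benjamini-Hochberg over all tested genes, threshold 0.05). An exact permutation test of 2 arrays against 2 cannot go below p = 0.333. The number of arrays limits precision. P-values and SEs in limma rest on the spread between these 2 mice, which eBayes draws towards a spread shared by all tested genes. They are therefore not the replicate error of a gene alone.

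Spleen and blood arrays of one number are paired, being from one animal per the labels, and their deviations from the tissue means correlated at r = 0.10 across genes. Members, lists and tests were chosen with earlier results of these data known. Every member may be named; values by array are given for the 6 higher and 6 lower members with the largest smaller within-mouse difference, the receptors, the 3 brightest, those under the filter, those that differed most between the mice or whose tissue difference was most uneven between them, those with probe sets of both directions (mostly as ranges), and 2 genes of each related list. Values by array of other members (such as Dyrk1a, Donson and U2af1) were added after they were seen. The fit was also tried on simulated data for this comparison (11614 genes, 10 runs of 200 changed genes). It recovered 54.0% of 2-fold and 85.7% of 4-fold changes, with 2.71% of calls wrong. Tested members differed by at most 0.53 log2 units, which is less than 2-fold, so these shares do not tell how many such differences would be found. On the real arrays 19 tested genes changed 2-fold or more with matching sign in each mouse. Yet 0 genes passed the adjusted threshold in limma, so the simulated shares may not hold for these arrays.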

Additional observations from a re-analysis of the deposited data

How the results depend on the processing

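The alternatives were other offsets, filters, probe set rules and scalings, a prior with an intensity trend, mouse as a block, and each array left out in turn. No member passed the adjusted threshold under any of the 13. Over all genes the count past it was 45 with the trend prior and ran from 0 to 20 with an array left out (20 without spleen replicate 1); all others gave 0. The 6 leading members kept differences between 0.25 and 0.63 with adjusted p between 0.115 and 0.858 over all alternatives. Members at an unadjusted p under 0.05 and higher numbered 3 to 5 with an array left out, with 3 without blood replicate 2, and lower ones 0 to 2, with 2 without spleen replicate 1 and 1 without blood replicate 1; quantile normalization also gave 1. The median over the members ran from 0.005 to 0.115 with an array left out. With mouse as a replicate block it was 0.061, as without it, which the balanced design fixes in advance. The block changed no call at the adjusted threshold. At an unadjusted p under 0.05 in limma, the block gave 1191 genes higher and 621 lower over all tested genes. Members higher in both mice numbered 13 of 33 tested with the mean of all probe sets, and lower ones 5; with quantile normalization 16 were higher and 14 lower. Genes at an unadjusted p under 0.05 split into 943 higher and 500 lower; centred arrays gave 718 and 686, there were 428 and 239 without blood replicate 2, against 768 and 772 without spleen replicate 1. Of 214 values for 17 named members, 207 kept direction and 7 turned. The block, the trend prior and the changes of filter leave a member's difference as it is. Their values could not turn and say nothing of how stable a direction was. The same holds with an array left out for members whose tissues did not overlap, such as the 6 leading ones. With the mean of all probe sets Ifnar1 gave -0.10, Ifnar2 0.08 and Itsn1 -0.08. With an array left out Cbs ran from -0.23 to 0.03, Ifnar2 from -0.12 to 0.02, Agpat3 from -0.11 to 1.16, Ifngr2 from -0.52 to -0.08, Il10rb from -0.46 to -0.05, Pdxk from -0.37 to -0.00, Rcan1 from -0.21 to -0.03, Tmem50b from -0.38 to -0.13, Ifnar1 from 0.01 to 0.32 and Itsn1 from -0.24 to 0.35; the cause was not tested. Differences of dim members are limited by signal over background.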

Other observations

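Another 60 mouse counterparts of genes on human chromosome 21 were listed, of which 59 had a probe set of their own and 51 were tested. Higher in spleen in both mice were 16 (31.4%), against 38.5% of all tested genes, and lower were 13 (25.5%), against 25.1%. The median difference was -0.01, and 0 had an adjusted p under 0.05 in limma, while 4 higher and 3 lower genes had an unadjusted p under 0.05, as did 8.12% and 4.31% of all tested genes. Hspa13, an HSP70 family member of the endoplasmic reticulum, had 500 and 440 in spleen of mice 1 and 2, against 324 and 318 in blood, a difference of 0.52 ± 0.12 (SE, 2 arrays per tissue). Dop1b had 148 and 106 in spleen, against 199 and 214 in blood, a difference of -0.65 ± 0.17. In neither gene did the tissues overlap. Chosen after its values were seen, Mx1, an interferon response gene, had 110 and 123 in spleen, against 123 and 305 in blood, and was highest in blood of mouse 2.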
